A study of Mus musculus with 3 samples.

Results

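The serpins are a family of protease inhibitors and related proteins. The probe sets taken here are those of the array's value table that the platform annotation assigns to a single gene whose symbol starts with Serpin, a clade letter from a to i and a digit. They number 28 of the table's 12488 probe sets and represent 23 of 8251 genes. Clade A holds 11 probe sets for 8 genes, clade B 8 probe sets for 8 genes and clade F 4 probe sets for 2 genes, and clades C, D, G, H and I hold 1 probe set each. No probe set of clade E met the rule, and the genes of that clade were not analysed here.

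Liver RNA came from male mice homozygous for a disrupted apoE gene on a C57BL/6JxOLA129 background, aged 3 months when the diets began, and all groups share this genotype. For 12 weeks they ate a diet with 1.0% by weight of t10,c12-CLA (9 mice), c9,t11-CLA (10 mice) or, as control, linoleic acid (10 mice), and in all 3 diets fat gave 30% of the energy. CLA is conjugated linoleic acid, and the names of its isomers give the place and the cis or trans form of each double bond. The labels do not say how many of the mice contributed RNA to an array, and they call the diet western where the design text calls it semi-purified. There was 1 array per diet, so every difference below is one between 2 arrays, with no replicate error and no test.

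A serpin inhibits its target by offering an exposed loop as bait. The protease cuts the loop, the serpin changes shape, and the protease is trapped in a covalent complex. Hepatocytes secrete most of the serpins of plasma, among them inhibitors of neutrophil proteases, clotting factors, plasmin and complement. Some members lost the inhibitory function and carry hormones or assist the folding of collagen, and clade B members mostly stay inside the cell.

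The mouse genome carries several near-identical copies of Serpina1, which encodes alpha-1-antitrypsin, the inhibitor of neutrophil elastase. Promoter stretches of 5 copies are shown because the probe sets of these copies gave unlike differences on the arrays. The stretches were read from RefSeq promoters of build GRCm38.p6. All lie upstream of the annotated start on the minus strand of chromosome 12, outside the annotated transcript. Their likeness thus does not show whether the copies share probe signal. Capitals mark the positions at which the 5 copies are not all alike.
Serpina1a: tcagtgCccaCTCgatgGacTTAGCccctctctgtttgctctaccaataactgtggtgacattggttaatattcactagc
Serpina1b: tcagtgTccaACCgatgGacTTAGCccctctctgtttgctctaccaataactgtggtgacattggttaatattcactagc
Serpina1c: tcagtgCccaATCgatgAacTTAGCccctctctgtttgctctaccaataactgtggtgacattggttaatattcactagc
Serpina1d: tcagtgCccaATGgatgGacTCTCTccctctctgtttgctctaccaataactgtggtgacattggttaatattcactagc
Serpina1e: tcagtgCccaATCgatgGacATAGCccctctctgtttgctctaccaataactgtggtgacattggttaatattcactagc

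The stretches span chr12:103863625-103863704 for Serpina1a, chr12:103738200-103738279 for Serpina1b, chr12:103904962-103905041 for Serpina1c, chr12:103773634-103773713 for Serpina1d and chr12:103956960-103957039 for Serpina1e. They were aligned on the longest run shared by all 5 copies, 55 bases, and end 5, 10, 11, 0 and 62 bases before the annotated start in the same order. Over these 80 bases 70 positions were identical in the 5 genes, and pairs of genes were 91.2% to 97.5% identical. The 55 bases were identical by choice of the window, and all 10 differing positions lie in the 25 bases before them. The percentages therefore do not measure the likeness of the promoters as a whole. Serpina1a and Serpina1d have no single-gene probe set. Of the 23 serpin genes, 19 had a promoter in the table of 32851 promoters of 300 bases. The motif TTCNNNGAA, the core bound by STAT factors, searched on both strands, occurred in 8.3% of all promoters and, among the serpin genes, in those of Serpinb2 and Serpinb6a. A match describes the letters in the window and does not show that a factor binds there.

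Each value is a MAS5 signal, a hybridisation brightness on a linear scale. A signal counts as measured above a floor of 490.3, the median of all signals on the 3 arrays, and a gene is represented by its brightest probe set. Of the 23 genes, 14 were above the floor on all 3 arrays, 3 on 1 array and 6 on none. Clade A had 7 of its 8 genes above the floor on all arrays, clade B 2 of 8, and the genes of clades C, D, F and G were all above it on every array. The 6 genes below it throughout were Serpina5, Serpinb1a, Serpinb2, Serpinb3a, Serpinb5 and Serpinb6c, with signals of 24.2 to 331.2.

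**Figure D1:**
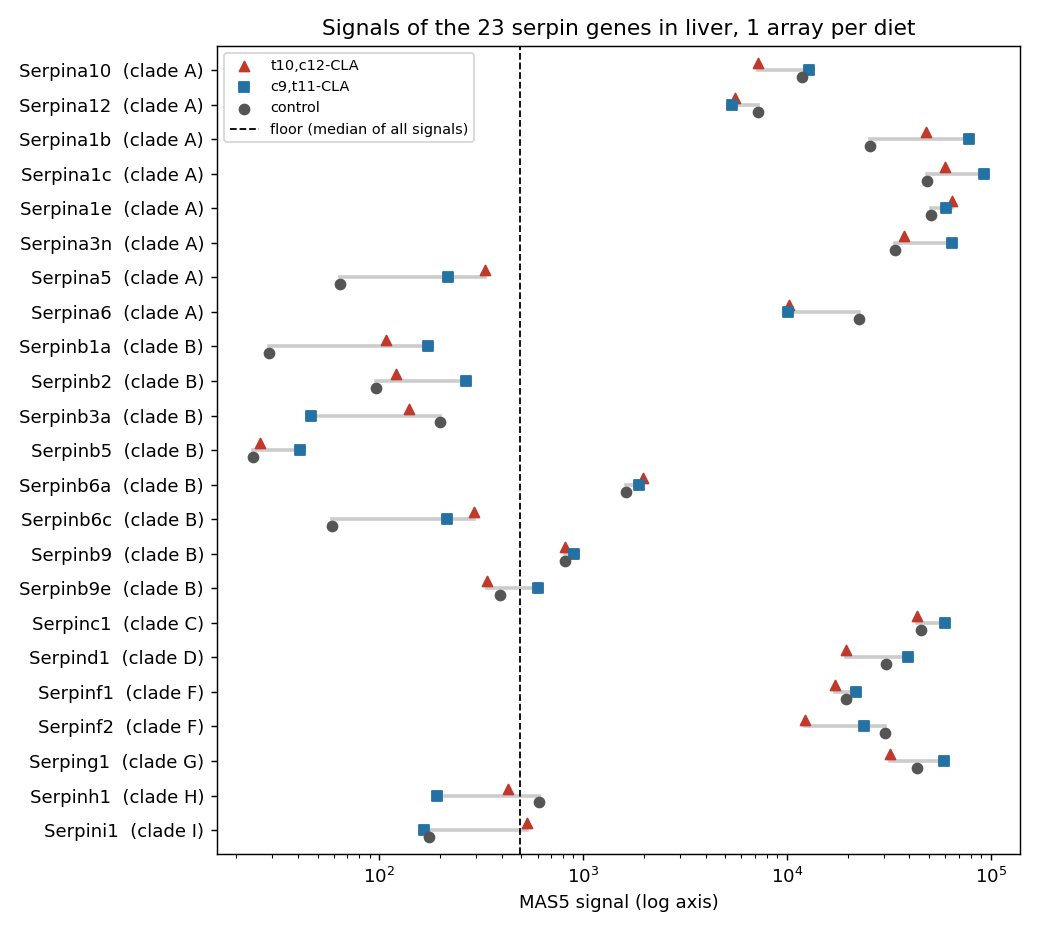
MAS5 signals (log axis) of the representing probe set of each of the 23 serpin genes on the t10,c12-CLA, c9,t11-CLA and control arrays, 1 point per array, with the floor of 490.3 as a dashed line. The secreted serpins of clades A, C, D, F and G lie above the floor on every array except Serpina5, while 5 of the 8 clade B genes lie below it on every array.

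The Apoe probe set gave 4288 on the t10,c12-CLA, 8695 on the c9,t11-CLA and 6570 on the control array, and since the sources used here do not say where its probes lie relative to the disruption, it does not check the genotype. The arrays had been scaled to the same trimmed mean, 1501 signal units. Median signals were 486.5 on the t10,c12-CLA, 523.5 on the c9,t11-CLA and 457.2 on the control array, and the brightest probe set reached 71111, 135007 and 70778 in the same order. The ratio of 3' to 5' signal, a sign of RNA quality, was 0.78, 0.98 and 1.06 for Gapdh and 1.35, 1.89 and 1.40 for actin on the same arrays. Signals of 9 probe sets for control transcripts that are not mouse genes had a median ratio to control of 1.08 on t10,c12-CLA and 1.31 on c9,t11-CLA, with a range of 1.02 to 2.12 on c9,t11-CLA. All 8 listed hepatocyte markers were above the floor on every array, with summed signals of 220836 on t10,c12-CLA and 387441 on c9,t11-CLA, against 217154 on control. They went both ways on c9,t11-CLA over control, 6 positive and 2 negative, from -0.94 for Ttr to 1.83 for Alb on the log2 scale. In whole liver fewer cells of a type and less RNA per cell cannot be told apart. Of 11 macrophage markers 10 were above the floor on every array, and all 11 summed to 94421 on t10,c12-CLA and 61318 on c9,t11-CLA, against 68583 on control. Over control, 9 macrophage markers were positive and 1 negative on t10,c12-CLA. On c9,t11-CLA 5 were positive and 5 negative, with a median log2 difference of -0.03. The lower c9,t11-CLA sum includes bright Lyz2, with 10087 there against 16171 on control. Of 7 neutrophil markers only 2, 5 and 2 were above the floor on t10,c12-CLA, c9,t11-CLA and control. The markers of T and NK cells, platelets, cholangiocytes and neurons on the array were below it on every array.

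Among 114 genes with a mean signal above 30000, 91 had higher signals on the c9,t11-CLA than on the control array, with a median log2 difference of 0.37. On the t10,c12-CLA array 51 were higher than on control, with a median of -0.05. This touches the 6 serpin genes of that brightness, Serpina1b, Serpina1c, Serpina1e, Serpina3n, Serpinc1 and Serping1. Their 6 differences between c9,t11-CLA and control were all positive, but 3 of them, those of Serpina1e, Serpinc1 and Serping1, were negative after quantile normalization. The part of the brightness shift, of the control transcripts and of the hepatocyte markers in them was not tested. Pairs of probe sets of the same gene gave an SD of a single log2 difference of 0.40 for t10,c12-CLA over control, 0.49 for c9,t11-CLA over control and 0.50 for t10,c12-CLA over c9,t11-CLA. This SD holds measurement error and probe design, not variation between mice.

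On the t10,c12-CLA diet, Serpinf2 and Serpina6 were at least 2-fold lower than on the control diet and no measured serpin gene was 2-fold higher. Both calls ended when the probe sets of a gene were averaged, at -0.77 for Serpinf2 and -0.68 for Serpina6 on the log2 scale, and after quantile normalization Serpina1b was also past 2-fold, higher at 1.16. On the c9,t11-CLA diet, Serpina1b was at least 2-fold higher and Serpina6 at least 2-fold lower, the Serpina6 call ending at -0.38 when its probe sets were averaged. Between the isomers, Serpind1 was at least 2-fold lower on t10,c12-CLA. Thus 2 of 14 measured serpin genes passed 2-fold for t10,c12-CLA over control, where 3.92% of all 4391 measured genes did. For c9,t11-CLA over control it was 2 of 14, against 5.76% of 4324 genes, and for t10,c12-CLA over c9,t11-CLA 1 of 14, against 6.02% of 4382. These counts rest on 1 or 2 genes each. By direction, 2.05% of all measured genes passed 2-fold upward and 1.87% downward for t10,c12-CLA over control, 2.98% upward and 2.78% downward for c9,t11-CLA over control, and 3.47% upward and 2.56% downward for t10,c12-CLA over c9,t11-CLA.

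Most measured serpin genes are bright, 11 of the 14 with a mean signal above 10000. Among all 447 genes of that brightness, 5.37% passed 2-fold for t10,c12-CLA over control, 8.95% for c9,t11-CLA over control and 8.05% for t10,c12-CLA over c9,t11-CLA, and 41.4%, 52.6% and 42.1% were higher by any amount. Of the 11 serpin genes, 4 were higher for t10,c12-CLA over control, 9 for c9,t11-CLA over control and 2 for t10,c12-CLA over c9,t11-CLA. The 9 became 7 with equal medians and 6 with quantile normalization, and the 2 became 3 with quantile normalization. Serpina1b, Serpina1c and Serpina1e count as separate genes in all these counts and medians, though their probe sets may share signal. The median log2 difference of the measured serpin genes was -0.12 for t10,c12-CLA over control, beside -0.01 over all measured genes. For c9,t11-CLA over control it was 0.23, beside 0.02, but 0.04 with equal array medians and 0.09 with quantile normalization. For t10,c12-CLA over c9,t11-CLA it was -0.55, beside -0.05, but -0.07 with quantile normalization. Among the 14 genes, the t10,c12-CLA array had the lowest signal for 7, and for 7 and 8 under the same alternatives. The c9,t11-CLA array had the highest for 9, but for 6 with equal medians and 5 with quantile normalization. Highest and lowest arrays were not counted over all measured genes, so these counts have no share to be set beside.

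**Figure D2:**
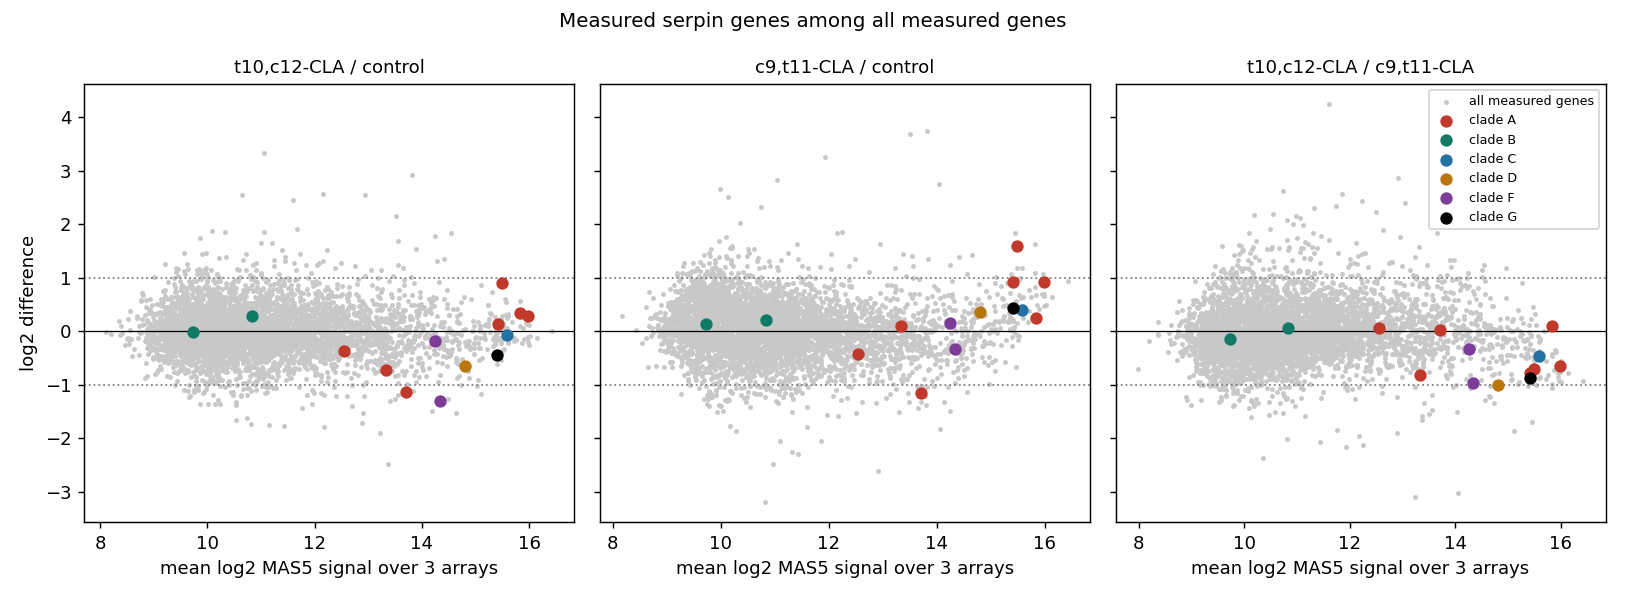
Log2 difference (vertical axis) against mean log2 MAS5 signal over the 3 arrays (horizontal axis) for all measured genes in grey and the 14 measured serpin genes in colours by clade, for t10,c12-CLA over control, c9,t11-CLA over control and t10,c12-CLA over c9,t11-CLA. Serpin genes with log2 differences of -1.31 to 0.90, -1.15 to 1.60 and -1.01 to 0.09 lie mostly at the bright end of the horizontal axis.

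The alpha-1-antitrypsin genes gave higher signals on both CLA arrays than on the control array in their 4 single-gene probe sets, by amounts that depended on the probe set, except that Serpina1e on c9,t11-CLA stood at -0.36 over control after quantile normalization. Serpina1b gave a signal of 48168 on t10,c12-CLA and 78128 on c9,t11-CLA, against 25750 on control. The array of c9,t11-CLA was the highest and control the lowest, a log2 difference over control of 0.90 (1.87-fold) for t10,c12-CLA and of 1.60 (3.03-fold) for c9,t11-CLA. Serpina1c gave 59403 on t10,c12-CLA and 92748 on c9,t11-CLA, against 48952 on control, or 0.28 and 0.92 on the log2 scale, the 0.92 becoming 0.18 after quantile normalization. The 0.28 lay within the SD of probe-set pairs.

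A second probe set of Serpina1c kept the same order of the diets with larger gaps. It gave 43966 on t10,c12-CLA and 83552 on c9,t11-CLA, against 17600 on control, 2.50-fold and 4.75-fold higher. Serpina1e gave 64575 on t10,c12-CLA and 60523 on c9,t11-CLA, against 51016 on control, so that its CLA arrays differed by 0.09 on the log2 scale and t10,c12-CLA was the highest. The probe sets of Serpina1b and Serpina1e and the second of Serpina1c carry the letter f in their identifiers, which marks probes shared by a gene family, so the signal of 1 copy cannot be told apart from that of its neighbours in sequence.

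Another 3 probe sets, annotated to several Serpina1 genes and thus outside the rule, were looked up for the same reason. Over all 7 probe sets, log2 differences for c9,t11-CLA over control were positive in 7 and ranged from 0.25 to 2.44, but after quantile normalization 5 were positive. For t10,c12-CLA over control 6 of 7 were positive, from -0.07 to 1.32, with 5 positive when the arrays were scaled to equal medians. For t10,c12-CLA over c9,t11-CLA 1 of 7 was positive, Serpina1e, but after quantile normalization 3 were. Of the 7, 6 gave signals above 30000 on the c9,t11-CLA array, the range of brightness in which that array ran above control.

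**Figure D3:**
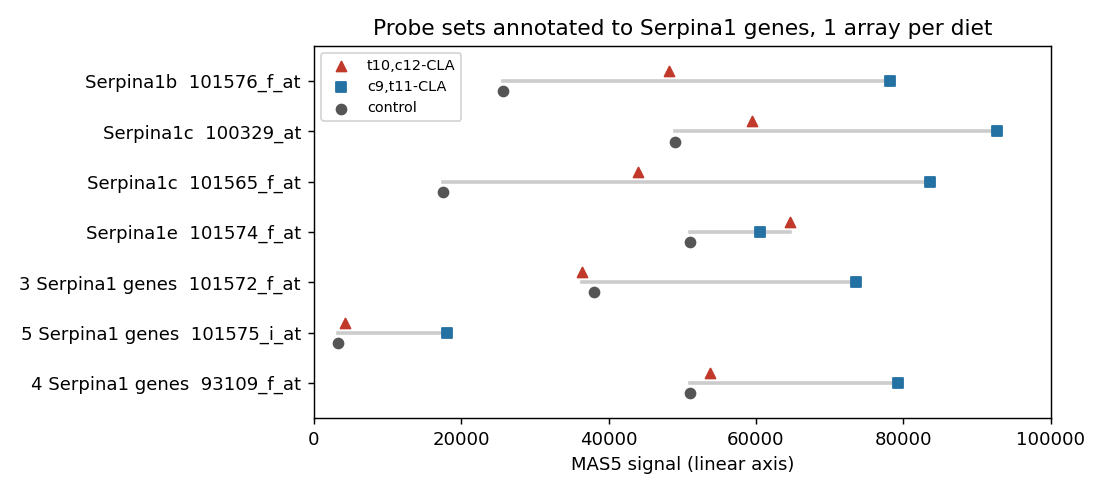
MAS5 signals (linear axis) of the 4 probe sets annotated to Serpina1b, Serpina1c or Serpina1e and of 3 annotated to several Serpina1 genes, with 1 point each for the t10,c12-CLA, c9,t11-CLA and control arrays. The c9,t11-CLA point is the highest in 6 probe sets, the exception being Serpina1e, and the control signal of 17600 for the second Serpina1c probe set lies well below its CLA signals.

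Serpina3n encodes a secreted relative of human antichymotrypsin that inhibits serine proteases of leukocytes and is induced in the acute phase response. It gave 37597 on t10,c12-CLA and 64490 on c9,t11-CLA, against 34119 on control. Only the c9,t11-CLA array stood apart, with log2 differences over control of 0.14 for t10,c12-CLA and 0.92 for c9,t11-CLA. After quantile normalization the values were 0.24 for t10,c12-CLA and 0.52 for c9,t11-CLA. The gene belongs to a cluster of close copies, so signal from the others cannot be told apart.

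Serpina6 encodes corticosteroid-binding globulin, a serpin that carries glucocorticoids in plasma and inhibits no protease. Its representing probe set gave 10296 on t10,c12-CLA and 10151 on c9,t11-CLA, against 22603 on control. Both CLA arrays were low and nearly equal, with log2 differences over control of -1.13 and -1.15. Both differences contain the same control array. The dimmer second probe set did not share this pattern, with 1224 on t10,c12-CLA and 1888 on c9,t11-CLA, against 1440 on control, or -0.23 and 0.39 on the log2 scale. Its identifier carries the letter f, and that of the representing probe set carries no such letter.

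Serpina10, the protein Z-dependent inhibitor of clotting factor Xa, lies next to Serpina6 on chromosome 12 with no protein-coding gene annotated between them. It gave 7250 on t10,c12-CLA and 12856 on c9,t11-CLA, against 11934 on control. Here only the t10,c12-CLA array was low, at -0.72 over control and -0.83 over c9,t11-CLA. The representing probe set of its neighbour Serpina6 was low on both CLA arrays, but the second one stood at -0.23 and 0.39. Serpina12 encodes vaspin, known as a protein secreted by adipose tissue. It gave 5571 on t10,c12-CLA and 5366 on c9,t11-CLA, against 7210 on control, log2 differences of -0.37 and -0.43. Both lay within the SD of all probe-set pairs above the floor. Both were larger than the SD of the brighter pairs alone, the range in which Serpina12 lies. That SD was 0.32 for t10,c12-CLA over control and 0.42 for c9,t11-CLA over control, each from 53 pairs.

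Clade A as a whole had no common direction, with 4 of its 7 measured genes positive and 3 negative for t10,c12-CLA over control and a median log2 difference of 0.14. For c9,t11-CLA over control 5 were positive and 2 negative with a median of 0.25, or 4 and 3 with equal medians and with quantile normalization.

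The plasma serpins outside clade A, those of clades C, D, F and G, gave lower signals on t10,c12-CLA than on control in 5 of 5 genes, where 41.4% of genes above 10000 were higher, with a median log2 difference of -0.44 and values from -1.31 to -0.06. The direction held for all 5 with equal medians and with quantile normalization. All 5 were also lower on t10,c12-CLA than on c9,t11-CLA, with a median of -0.88 and values from -1.01 to -0.34, except that Serpinc1 stood at 0.01 after quantile normalization. For c9,t11-CLA over control 4 of 5 were positive with a median of 0.36, which turned to -0.03 after quantile normalization with 3 of 5 negative. Pooling these clades was not part of the planned grouping by clade letter. For t10,c12-CLA over control, Serpinc1 at -0.06, Serpinf1 at -0.18 and the second Serpinf2 probe set at -0.22 lay within the SD of probe-set pairs.

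Serpinc1 encodes antithrombin, the main inhibitor of thrombin in plasma. It gave 43486 on t10,c12-CLA and 60005 on c9,t11-CLA, against 45450 on control. The t10,c12-CLA and control arrays were nearly equal and c9,t11-CLA stood at a log2 difference of 0.40 over control, but at -0.12 after quantile normalization.

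Serpind1 encodes heparin cofactor II, a thrombin inhibitor activated by dermatan sulfate. It gave 19555 on t10,c12-CLA and 39297 on c9,t11-CLA, against 30556 on control. The isomers lay on opposite sides of control, at -0.64 for t10,c12-CLA and 0.36 for c9,t11-CLA, and differed 2.01-fold, which fell below 2-fold at -0.90 with equal medians and -0.81 with quantile normalization. The 0.36 lay within the SD of probe-set pairs.

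Serpinf2 encodes alpha-2-antiplasmin, the main inhibitor of the clot-dissolving protease plasmin. Its representing probe set gave 12285 on t10,c12-CLA and 24029 on c9,t11-CLA, against 30416 on control. The t10,c12-CLA array was 2.48-fold lower than control, a log2 difference of -1.31, and c9,t11-CLA stood at -0.34. A dimmer probe set pointed the same way for t10,c12-CLA with a smaller gap, giving 1683 on t10,c12-CLA and 2107 on c9,t11-CLA, against 1966 on control, or -0.22 and 0.10 on the log2 scale. Its identifier carries the letter r, 1 of the letters that mark possible cross-hybridisation or incomplete probe selection.

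Serpinf1, the next protein-coding gene on chromosome 11, encodes pigment epithelium-derived factor, a secreted inhibitor of blood vessel growth with no known protease target. It gave 17326 on t10,c12-CLA and 21872 on c9,t11-CLA, against 19583 on control. Its log2 differences over control of -0.18 and 0.16 were within the SD of probe-set pairs, unlike the -1.31 of the representing Serpinf2 probe set. The dimmer Serpinf2 probe set, at -0.22 and 0.10, lay within that SD as well. The second Serpinf1 probe set was above the floor on the c9,t11-CLA array alone, at 645.0.

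Serping1 encodes C1 inhibitor, which restrains the first proteases of complement and plasma kallikrein. It gave 32061 on t10,c12-CLA and 58867 on c9,t11-CLA, against 43636 on control. As for Serpind1 the isomers lay on either side of control, at -0.44 and 0.43, and differed by -0.88 on the log2 scale. The 0.43 lay within the SD of all probe-set pairs above the floor, but past the 0.42 of the brighter pairs. After quantile normalization c9,t11-CLA stood at -0.03 over control, and the isomers differed by -0.47.

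**Figure D4:**
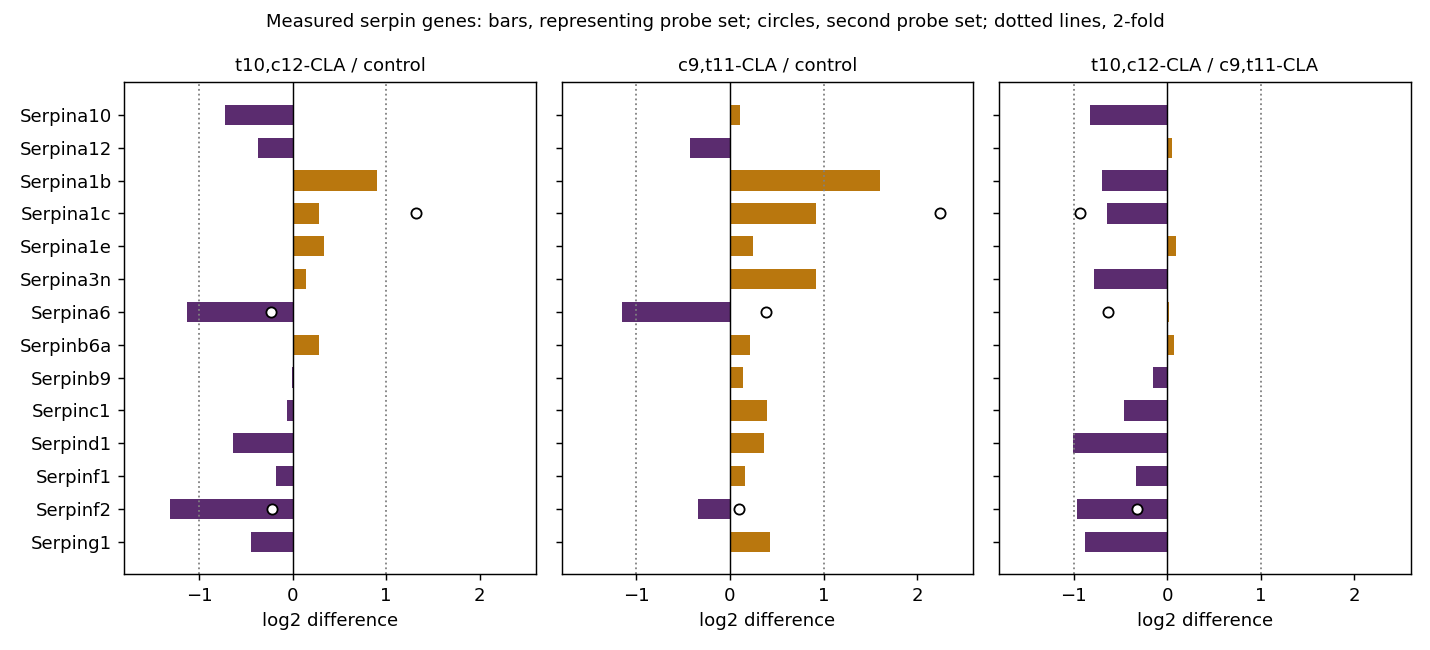
Log2 differences of the 14 measured serpin genes for t10,c12-CLA over control, c9,t11-CLA over control and t10,c12-CLA over c9,t11-CLA. Bars show the representing probe set, circles a second measured probe set and dotted lines a 2-fold difference. The second probe sets of Serpina6 (-0.23 and 0.39 over control) and Serpinf2 (-0.22 for t10,c12-CLA over control) lie far from their bars of -1.13, -1.15 and -1.31.

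Clade B serpins, which act mainly inside cells, gave small differences where they were measured. Serpinb6a, an intracellular inhibitor of serine proteases, gave 1970 on t10,c12-CLA and 1881 on c9,t11-CLA, against 1621 on control, log2 differences of 0.28 and 0.21. Serpinb9, which shields cytotoxic lymphocytes from their own granzyme B, gave 815.0 on t10,c12-CLA and 904.1 on c9,t11-CLA, against 819.3 on control, or -0.01 and 0.14. The granzymes Gzma and Gzmb were below the floor on every array, at 202.0 and 210.6 on t10,c12-CLA, 306.2 and 135.0 on c9,t11-CLA and 215.3 and 130.7 on control.

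Serpinb9e was above the floor on the c9,t11-CLA array alone, with 337.9 on t10,c12-CLA and 602.9 on c9,t11-CLA, against 390.9 on control. Its bound, taken against the floor, was at least 1.23-fold higher on c9,t11-CLA. Of the clade B genes below the floor, Serpinb1a and Serpinb2 are known from leukocytes and macrophages, and Serpinb5 and Serpinb3a from squamous epithelium. Of 5 squamous epithelium markers, 2 were above the floor on t10,c12-CLA, 0 on c9,t11-CLA and 1 on control. Ly6d gave 9336 on t10,c12-CLA and 277.4 on c9,t11-CLA, against 1589 on control. The keratin Krt1 was above the floor on t10,c12-CLA alone, with 655.5 there and 346.6 on c9,t11-CLA, against 327.4 on control. The keratins Krt5, Krt14 and Krt10 were below the floor on every array. Serpinb5 gave 26.1, 41.2 and 24.2 and Serpinb3a 140.6, 46.4 and 199.6 on those arrays.

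Serpinh1 encodes a chaperone of the endoplasmic reticulum that binds procollagen and is made by collagen-producing cells. It was above the floor on the control array alone, with 429.3 on t10,c12-CLA and 193.2 on c9,t11-CLA, against 609.8 on control. It was thus at least 1.24-fold lower on both CLA arrays, by a bound set by the floor. The 8 stellate cell and fibroblast markers on the array had summed signals of 54856 on t10,c12-CLA and 38613 on c9,t11-CLA, against 44801 on control, with 7, 6 and 8 of them above the floor. Over control, 4 were positive and 3 negative on t10,c12-CLA, and 3 positive and 3 negative on c9,t11-CLA with a median log2 difference of -0.08. The sums weigh bright genes most. Bgn gave 20434 on t10,c12-CLA and 11404 on c9,t11-CLA, against 9043 on control. Dcn gave 23003 and 19600, against 25878 on control. The part of stellate cells and fibroblasts in the Serpinh1 signal was not tested. Serpini1, neuroserpin, an inhibitor of tissue plasminogen activator known from neurons, was above the floor on t10,c12-CLA alone, with 533.2 there and 166.6 on c9,t11-CLA, against 176.7 on control, at least 1.09-fold higher. The neuron markers Snap25, Nefl and Syp were below the floor on every array.

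Of 29 listed proteases that serpins inhibit 25 were on the array and 15 measured. For t10,c12-CLA over control 12 were negative and 3 positive with a median log2 difference of -0.31, where 2233 of all 4391 measured genes were negative. With equal medians 13 were negative and with quantile normalization 11. At least 2-fold lower was 1 of them, against 1.87% of all measured genes, and 0 were at least 2-fold higher. For c9,t11-CLA over control 10 of 15 were negative, with a median of -0.21 and none past 2-fold, and with 12 and 10 negative under those alternatives. Klkb1, plasma kallikrein and a target of C1 inhibitor, gave 1501 on t10,c12-CLA and 2001 on c9,t11-CLA, against 3030 on control, log2 differences of -1.01 and -0.60. Plg, the precursor of plasmin, gave 71111 on t10,c12-CLA and 135007 on c9,t11-CLA, against 70778 on control, and was the brightest probe set of all 3 arrays. Quantile normalization gives the brightest probe set of each array the same value, so it leaves no difference for Plg. Elane, neutrophil elastase and the target of alpha-1-antitrypsin, stood at -0.42 for t10,c12-CLA and 0.76 for c9,t11-CLA over control. Its signals were near the floor, with 552.6 on t10,c12-CLA and 1257 on c9,t11-CLA, against 741.4 on control. Ctsl, the lysosomal protease cathepsin L, stood at 0.11 for t10,c12-CLA and -0.87 for c9,t11-CLA.

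Of 16 cofactors, receptors and collagen clients of serpins, 13 were on the array. For t10,c12-CLA over control 9 were measured with a median log2 difference of 0.10, 1 of them at least 2-fold higher, against 2.05% of all measured genes, and for c9,t11-CLA over control 8 with a median of 0.11 and none past 2-fold. With equal medians these medians were 0.01 and -0.08. The 4 largest differences from control were those of collagens, the clients of the chaperone Serpinh1, of which Col1a1 and Col3a1 are also among the stellate cell and fibroblast markers. Over control, Col4a2 stood at 1.15 on t10,c12-CLA and 0.05 on c9,t11-CLA, Col4a1 at 0.75 and -0.82, and Col1a1 at 0.80 and 0.05. Col3a1 gave 1279 on t10,c12-CLA and 335.3 on c9,t11-CLA, against 694.6 on control, with c9,t11-CLA below the floor. Not all listed collagens went this way. Col1a2, the brightest of them, stood at -0.10 on t10,c12-CLA and -0.21 on c9,t11-CLA over control, and Col5a2 was below the floor on every array.

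Listed protease inhibitors outside the symbol rule had no common direction. The list includes Agt, angiotensinogen, a serpin by family that is not known to inhibit a protease and whose symbol falls outside the rule. Agt stood at 0.22 on t10,c12-CLA and 0.28 on c9,t11-CLA over control. Of 29 listed genes 17 were measured, 9 negative and 8 positive for t10,c12-CLA over control with a median log2 difference of -0.20. At least 2-fold lower were 3 of them, against 1.87% of all measured genes, and 1 was at least 2-fold higher, against 2.05%. On c9,t11-CLA 2 were at least 2-fold lower, against 2.78% of all measured genes, and 1 at least 2-fold higher, against 2.98%, with a median of 0.04 that became -0.16 with equal medians and -0.25 with quantile normalization. Mug2, a murinoglobulin that traps proteases, gave 5859 on t10,c12-CLA and 14931 on c9,t11-CLA, against 14545 on control. Kng1, a kininogen with cysteine protease inhibitor domains, stood at -1.26 on t10,c12-CLA and -0.35 on c9,t11-CLA over control, and Itih1, an inter-alpha-trypsin inhibitor heavy chain, at -1.20 and -0.63. Timp3, an inhibitor of matrix metalloproteases, was 2.73-fold higher on t10,c12-CLA than on control, with 1861 on t10,c12-CLA and 683.0 on c9,t11-CLA, against 680.7 on control.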

How the data were processed

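Gene expression in liver was measured on 3 Affymetrix arrays, 1 per diet. The deposited values are MAS5 signals, intensities on a linear scale, and the submitters' processing notes name MAS5 as the method by which the authors made them. Its version, detection calls and probe intensities are not given in the sources used here. No signal was negative, and the 2%-trimmed means were equal.

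Symbols came from the platform annotation, updated by Entrez identifier from a RefSeq table of assembly GRCm38.p6, used for names and gene order. Of the probe sets, 10833 carried 1 symbol, 396 several and 1193 none, and 66 were array controls. Log2 differences were taken between arrays above the floor on both. Counts used 2-fold. With 1 array per diet no test was possible, and the number of arrays limits the precision. The counting was tested on simulated data.

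The members, the gene lists and the rule for named genes were chosen with earlier results of these data known. The rule let every serpin gene be named, and up to 4 measured genes of each other list with the largest difference from control. The granzymes, Agt, Col5a2, cell type markers and Serpina1 probe sets of several genes were named outside it, after their values were seen. Alternatives were equal medians, quantile normalization, floors at the 25th and 75th percentile, a pseudocount of 50, the mean over probe sets, and leaving out probe sets with marked identifiers. Calculations used Python 3.11.15, numpy 2.4.6 and pandas 2.3.3.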

Additional observations from a re-analysis of the deposited data

Results flagged for a closer look

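A probe set annotated to 5 Serpina1 genes, which belongs to no single gene and so to none of the gene counts, was well above the control level on 1 diet. It gave 4222 on t10,c12-CLA and 18125 on c9,t11-CLA, against 3348 on control, 5.41-fold higher on c9,t11-CLA. After quantile normalization its log2 difference for c9,t11-CLA over control was 2.46, beside 2.44 as deposited. The other Serpina1 probe sets annotated to several genes gave 1.93-fold and 1.55-fold higher signals on c9,t11-CLA than on control. The letter i in the probe set's identifier stands for incomplete probe selection, and the part of this in the difference was not tested.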

How the results depend on the processing

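The number of serpin genes past 2-fold for t10,c12-CLA over control was 2, and 0 when all measured probe sets of a gene were averaged. The second probe sets of Serpina6 and Serpinf2, both with marked identifiers, pulled these genes to -0.68 and -0.77. The number was 3 with quantile normalization, which added Serpina1b at 1.16. It was also 3 with a floor at the 25th percentile of signals, which added Serpini1 at 1.59. For c9,t11-CLA over control it was 2, and 1 without marked probe sets, which include the only one of Serpina1b. The lower floor gave 3, adding Serpinh1 at -1.66. With averaging it was also 2, but the genes were Serpina1b and Serpina1c, since Serpina6 stood at -0.38. For t10,c12-CLA over c9,t11-CLA it was 1, and 0 with equal medians, 0 with quantile normalization and 3 with the lower floor, which added Serpinh1 at 1.15 and Serpini1 at 1.68. The median log2 difference of 0.23 for c9,t11-CLA over control became 0.04 with equal medians and 0.09 with quantile normalization. That of -0.12 for t10,c12-CLA over control became -0.27 without marked probe sets. That of -0.55 between the isomers became -0.07 with quantile normalization and -0.34 with that lower floor. Equal medians moved the median of all measured genes for c9,t11-CLA over control to -0.16, against 0.02 as deposited. None of the 5 differences past 2-fold changed sign under the 7 alternatives, or the 6 that apply to Serpina1b. Smaller ones did: for c9,t11-CLA over control, Serpina10, Serpinb9 and Serpinf1 changed sign with equal medians and Serpina1e, Serpinc1 and Serping1 with quantile normalization, as did Serpina1c, Serpina12 and Serpinc1 between the isomers. The causes of shifts not named here were not tested. No paired analysis was possible because each diet has 1 array.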

Other observations

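Genes known to control serpin expression in liver showed no common direction. Of 18 listed regulators, 14 were on the array and 10 measured in each comparison with control, with median log2 differences of 0.02 for t10,c12-CLA and 0.24 for c9,t11-CLA, which became -0.07 and 0.05 with equal medians. Il6ra, the receptor for the acute phase inducer interleukin-6, gave 1825 on t10,c12-CLA and 3864 on c9,t11-CLA, against 1540 on control. Only the c9,t11-CLA array stood apart for this gene, 2.51-fold higher than control. Lifr, the receptor of leukaemia inhibitory factor, gave 1946 on t10,c12-CLA and 7590 on c9,t11-CLA, against 6731 on control, and here only t10,c12-CLA was low. Cebpb, a transcription factor of the acute phase, stood at 0.68 on t10,c12-CLA and 0.99 on c9,t11-CLA over control, and Ghr, the growth hormone receptor, at -0.94 and -0.53.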
